A study of Mus musculus with 6 samples.

Results

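Regions far from genes where the FLAG signal of Onecut3 was found in every replicate are described here, with the protein-coding genes on either side of them. Overlapping peaks of the 3 Onecut3-OE FLAG lists were merged at 1 bp or more, and a region was kept when it held a peak of all 3 lists, lay on chromosomes 1-19 or X, and had its midpoint outside every protein-coding gene and more than 50 kb from the nearest gene end. This left 1170 desert regions, 22.9% of the 5099 shared regions on those chromosomes, where 50748 regions had a peak in at least 1 list. Without replicate 2, which had the shortest list, 2313 regions had a peak in both other lists and met the rest of the rule. The other shared regions comprised 928 within 3 kb of a gene end, 2030 deeper inside a gene and 971 intergenic ones 3 to 50 kb away. The desert regions were thus chosen by measured values, namely a called peak in each list, together with distance, and neither is a result about them.

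The data are ChIP-Seq peak lists from MEFs, primary fibroblasts from C57BL/6 mouse embryos. Of 6 libraries, 3 are anti-FLAG replicates of Onecut3-OE cells, in which 100 ng/mL Dox induced Onecut3 through the Retro-X Tet-One system, and input and IgG libraries of Onecut3-OE cells and a FLAG library of control cells without Dox have 1 sample each. Only the 3 Onecut3-OE FLAG lists were used, so the signal of control cells was not analysed here and binding cannot be set against it. Nothing in the sources used here says whether the replicates were separate cultures. The lists held 31600 peaks in replicate 1, 12856 in replicate 2 and 24822 in replicate 3, and their read depths are unknown. Peak lists carry no expression values, so fibroblast markers could not be checked.

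Onecut3 belongs to the Onecut family of transcription factors, which bind DNA through a cut domain and a homeodomain and are best known from the development of liver, pancreas and the nervous system. Long stretches without protein-coding genes are called gene deserts. Many of them border genes that control development, and some hold enhancers that act on a promoter far away, so the gene nearest to a bound region need not be the one it acts on.

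Sequence could be read where a desert region reached a RefSeq promoter window, which runs from 250 bases before to 50 bases after a gene's start. At such distances from protein-coding genes these were windows of non-coding genes. Of the 1170 desert regions, 9 reached one and 5 had the summits of all 3 replicates in 1 window, each that of a long non-coding RNA (lncRNA) gene. These 5 windows are shown because they are the desert sequences in hand with the summit inside. They come from RefSeq on GRCm38.p6, 5′ to 3′ on the strand of the gene, with capitals marking core sites that Onecut and other cut proteins are known to bind. The cores searched were ATCGAT on the one hand and, on the other, ATCAAT with its reverse complement, which reads ATTGAT. Gm51670 (chr9:41579597-41579896, minus strand) and Gm35940 (chr9:41805549-41805848, plus strand) lie in the same gap between Ubash3b and Gm40514. Gm5546 (chr3:104360269-104360568, minus strand) lies between Magi3 and Lrig2, Gm14064 (chr2:137663161-137663460, plus strand) between Jag1 and Btbd3, and Gm33502 (chr16:30793172-30793471, plus strand) between Fam43a and Xxylt1.
Gm51670: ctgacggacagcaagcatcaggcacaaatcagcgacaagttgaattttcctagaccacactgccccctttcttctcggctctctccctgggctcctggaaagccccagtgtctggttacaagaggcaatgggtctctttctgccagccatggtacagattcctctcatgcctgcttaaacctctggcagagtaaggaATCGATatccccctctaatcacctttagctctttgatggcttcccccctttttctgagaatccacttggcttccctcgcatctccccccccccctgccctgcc
Gm35940: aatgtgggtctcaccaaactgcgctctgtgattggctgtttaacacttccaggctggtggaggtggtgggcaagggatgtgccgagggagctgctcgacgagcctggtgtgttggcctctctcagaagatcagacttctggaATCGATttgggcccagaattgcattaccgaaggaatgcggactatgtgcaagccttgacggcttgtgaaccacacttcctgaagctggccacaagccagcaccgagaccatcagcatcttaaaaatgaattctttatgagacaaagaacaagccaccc
Gm5546: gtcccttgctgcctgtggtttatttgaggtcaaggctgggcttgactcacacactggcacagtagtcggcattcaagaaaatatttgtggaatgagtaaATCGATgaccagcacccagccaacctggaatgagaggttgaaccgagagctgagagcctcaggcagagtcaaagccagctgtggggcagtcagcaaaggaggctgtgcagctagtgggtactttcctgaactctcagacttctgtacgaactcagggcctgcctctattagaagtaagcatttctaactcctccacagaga
Gm14064: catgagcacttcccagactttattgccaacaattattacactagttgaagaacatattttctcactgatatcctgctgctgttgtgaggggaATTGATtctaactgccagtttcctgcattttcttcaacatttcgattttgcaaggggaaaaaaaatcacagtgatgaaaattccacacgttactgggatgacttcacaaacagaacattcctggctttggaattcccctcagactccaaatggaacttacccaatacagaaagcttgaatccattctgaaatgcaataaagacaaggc
Gm33502: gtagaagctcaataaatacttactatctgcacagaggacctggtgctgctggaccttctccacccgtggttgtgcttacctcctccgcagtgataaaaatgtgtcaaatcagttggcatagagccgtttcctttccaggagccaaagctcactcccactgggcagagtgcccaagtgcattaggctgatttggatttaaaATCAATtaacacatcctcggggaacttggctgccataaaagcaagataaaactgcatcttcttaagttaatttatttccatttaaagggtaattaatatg

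All 5 windows held a core site, 3 of them ATCGAT and 2 of them ATCAAT or ATTGAT, when both strands were read. ATCGAT is its own reverse complement, and a window with several matches, which may share end bases, was counted once. Over all 32585 promoter windows of the same length, 0.933% held ATCGAT and 8.38% held any of the cores, and over the 11573 windows of non-coding genes 10.3% held any. Windows with the 3 summits of another shared region held a core in 106 of 192 cases (55.2%), and ATCGAT in 32 (16.7%). Of 12 windows with the summit of a desert region seen in 1 list only, 6 held a core and none held ATCGAT, and of 6 windows with summits from 2 lists, 5 held a core and 1 held ATCGAT. The desert windows had a median GC content of 50.7%, against 58.7% for those of other shared regions and 48.3% for all non-coding genes. A match describes letters only, and 5 windows do not stand for 1170 regions.

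The site in Gm51670 lay closest to the signal, with its centre 1.5 bp from the median summit. This region had folds of 6.36, 5.57 and 6.05 in replicates 1, 2 and 3, where the fold is the ratio of ChIP signal to the background expected from the control, with 1 added to both, as the peak caller gives it. In Gm5546 the core lay 28.5 bp from the median summit and the folds were 5.37, 7.24 and 6.27. In Gm35940 it lay 35.5 bp away, with folds of 3.45, 6.28 and 7.69. The ATCAAT of Gm33502 and the ATTGAT of Gm14064 lay farther off, at 60.5 and 123.5 bp. Their regions reached folds of 5.15, 4.46 and 5.09 and of 5.45, 7.51 and 4.46 in the same order of replicates.

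A few desert regions sat beside microRNA genes, which the rule did not count as genes, at a share near that of all desert regions with any peak. Within 15 kb of a hairpin, a limit chosen after values were seen, lay 6 desert regions (0.513%), beside 0.406% of all desert regions with a peak in any list. They lay near 10 hairpins, and the mature sequences of 7 are printed to identify the transcripts near these regions. Sequences are from RefSeq on GRCm38.p6, with the seed (bases 2 to 8) in capitals.
miR-125b-5p: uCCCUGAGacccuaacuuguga
miR-30a-5p: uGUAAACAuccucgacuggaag
miR-30c-5p: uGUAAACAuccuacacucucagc
miR-221-3p: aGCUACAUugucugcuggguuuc
miR-222-3p: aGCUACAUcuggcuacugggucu
miR-216a-5p: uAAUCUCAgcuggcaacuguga
miR-217-5p: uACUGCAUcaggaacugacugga

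miR-30a-5p and miR-30c-5p share the seed GUAAACA, and miR-221-3p and miR-222-3p share GCUACAU, so each pair can recognize the same target sites. The nearest hairpin was Gm51276, between Slc45a1 and Errfi1, with regions at 0.55 and 2.12 kb. The closer of these had folds of 4.03, 3.14 and 3.70, and the other (chr4:150799893-150800244) had 6.98, 6.04 and 4.84. The region at the Gm51670 start lay 2.29 kb from Mir125b-1. A region between Ccdc85a and Efemp1 (chr11:28753932-28754292) lay 2.90 kb from Mir216a and 9.62 kb from Mir217, with folds of 4.24, 3.62 and 5.09. The region near Mir30a and Mir30c-2 (chr1:23280035-23280601), 7.98 and 11.4 kb away, had folds of 3.22, 3.62 and 3.70. The lowest folds of the group, 2.59, 2.13 and 2.99, belonged to the X chromosomal region 12.0 kb from Mir221 and 12.6 kb from Mir222.

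The distance of the desert regions to the nearest gene end ran from 50.1 to 1725 kb, with a median of 155 kb and quartiles of 91.5 and 297 kb. The fold ranged from 1.48 to 9.69 in replicate 1, with a median of 3.94. In replicate 2 it ranged from 1.28 to 10.8 (median 4.18), and in replicate 3 from 1.55 to 9.69 (median 3.99). The median width was 406 bp, from 221 to 1330 bp. Across the 1170 regions, folds of different replicates correlated with Spearman coefficients of 0.429 to 0.461, a description over regions that share the control background. Just inside the 50 kb limit lay a region between Tbc1d21 and Insyn1 at 50.1 kb (folds 2.95, 4.90 and 5.07), and just outside it one between Dnah5 and Ctnnd2 at 49.98 kb (3.56, 3.31 and 4.44).

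Median folds of desert regions lay close to those of the shared regions nearer to genes. The median fold was 3.94 in desert regions and 4.01 in the other shared regions in replicate 1. It was 4.18 in both in replicate 2, and 3.99 against 4.09 in replicate 3. Of the other shared regions, those 3 to 50 kb away had medians of 3.94, 4.18 and 3.99, and those deeper inside a gene 3.94, 4.18 and 3.94. Those within 3 kb of a gene end had 4.24, 4.46 and 4.27. The mean difference over lists, desert minus other shared regions, was -0.06 ± 0.05 (SD, n = 3 lists; exact sign-flip permutation test, two-sided, p = 0.5). The smallest p that 3 lists allow is 0.25, but with replicate 2 tied it was 0.5 here. With peaks of q of at most 0.05 alone the difference was 0.03, of the opposite sign (exact p = 1). At the high end, 80 desert regions (6.84%) had a fold of at least 5 in all 3 lists, against 9.47% of the other shared regions. At a fold of at least 7 these shares were 0.342% and 1.50%. A q of at most 0.05 in all 3 lists was met by 584 desert regions (49.9%), against 59.1% of the other shared regions and 57.0% of all shared regions. Summits of the 3 replicates lay a median of 74 bp apart in desert regions and 65 bp in the others.

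**Figure D1:**
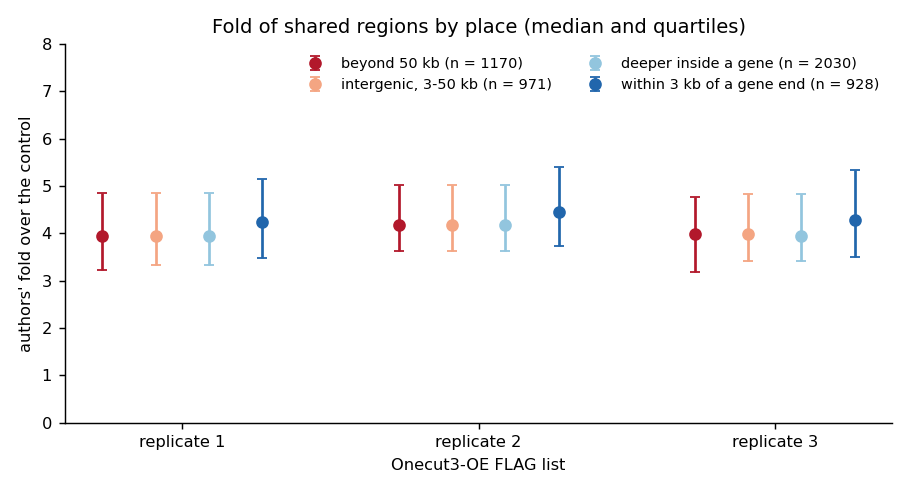
Fold over the control background as the authors' lists give it (y axis, linear ratio), by replicate and by the place of the shared region. Points are medians and bars run between the quartiles over regions. Medians of regions beyond 50 kb lie at 3.94, 4.18 and 3.99, as do those of intergenic regions 3 to 50 kb away. Regions deeper inside a gene have 3.94, 4.18 and 3.94, and those within 3 kb of a gene end 4.24, 4.46 and 4.27.

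In each of the 3 lists the share of peaks that recurred was lower in deserts than elsewhere. Recurrence is a value that the rule itself used, so this is a description only. Of all desert regions with a peak in any list, 7.92% had one in all 3, against 10.9% of the remaining regions and 10.0% of all regions. Among the remaining regions the share was 9.49% for intergenic ones 3 to 50 kb away, 10.2% deeper inside a gene and 15.6% within 3 kb of a gene end. By list, 13.2%, 36.1% and 16.8% of the desert peaks of replicates 1, 2 and 3 recurred in both other lists, against 17.5%, 41.4% and 22.3% of other peaks. The difference was negative in each list and averaged -5.03 ± 0.668 percentage points (SD, n = 3 lists; exact sign-flip permutation test, two-sided, p = 0.25, the smallest possible). The recurring peaks of every list belong to the same regions with a peak in all 3 lists, so the 3 differences are not independent. Their common sign, SD and p do not measure agreement between replicates. Within the deserts the share in all 3 lists was 9.65% of 3670 regions at 50 to 100 kb from a gene, 7.48% at 200 to 500 kb and 4.14% (29 of 701) beyond 1000 kb. Intergenic regions 10 to 50 kb away had 9.45%, so the share did not drop at the 50 kb limit but farther out.

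**Figure D2:**
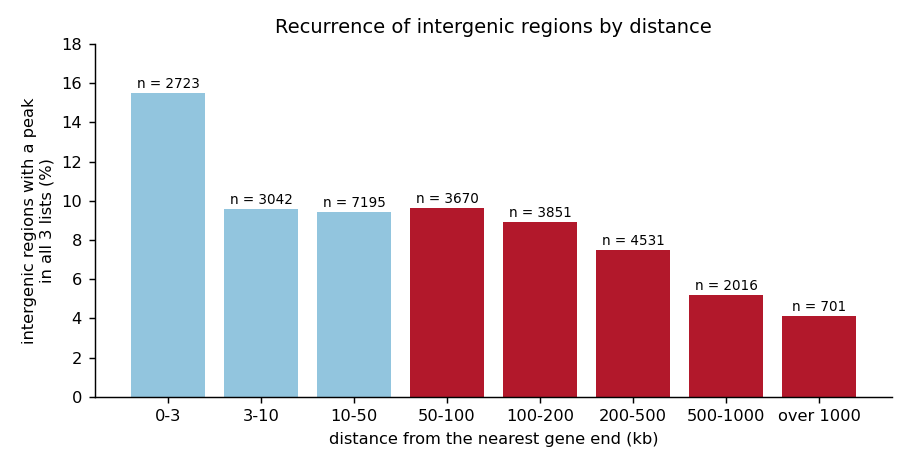
Share of intergenic regions with a peak in any list that had one in all 3 lists (y axis, percent), by distance of the midpoint from the nearest protein-coding gene end (x axis, kb); n is the number of regions. Red bars mark distances beyond 50 kb, where the share falls to 4.14% past 1000 kb, and blue bars the nearer intergenic regions, with 15.5% within 3 kb.

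Input background could be read from 2 of the lists. In replicates 1 and 3, where pileup and background could be solved from fold and p, desert regions had a median pileup of 13 and 12 fragments, against 14 and 13 in the other shared regions. The background lay above its genome-wide floor in 40.9% and 40.8% of desert regions, against 49.8% and 49.6% of the others and 47.7% and 47.5% of all shared regions. A background of 10 fragments or more was found at 17 desert regions, with folds of at most 5.21, 4.39 and 4.24. Its part in the calls was not tested.

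The desert regions fell into gaps of very different length. Gaps of over 100 kb between neighbouring protein-coding genes are the only ones that can hold a point more than 50 kb from both ends, and 640 of 2768 such gaps held a desert region, while 8 regions lay beyond the outermost gene of a chromosome. The share of gaps with a region was 3.89% of 797 gaps of 100 to 150 kb, 30.9% of those of 250 to 500 kb and 54.4% of 281 gaps of over 1000 kb. Per Mb of gap more than 50 kb from both genes, here called desert space, the density was 1.86 in the shortest class, 1.85 at 250 to 500 kb and 0.770 in the longest. Most occupied gaps held a single region (384), and 33 held 5 or more, 205 regions in all. Neighbouring desert regions of 1 gap lay a median of 92.5 kb apart, and 57 of 522 neighbouring pairs within 10 kb.

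The gap between Myc, the growth-promoting transcription factor, and Gsdmc, a gasdermin, held the most desert regions of all gaps, 12 over 1786 kb of chromosome 15. Their density was 7.12 per Mb of desert space. The pair of regions nearest to Myc lay inside Pvt1, the lncRNA gene next to it. One, 58.7 kb from Myc (chr15:62048869-62049191), had folds of 3.94, 4.39 and 4.36, and the other, 232 kb away (chr15:62222515-62223062), had 4.78, 4.83 and 5.70. The gap's median folds were 3.71, 3.48 and 3.74, below the medians of all desert regions in each replicate. Its regions spread over the whole gap, up to 74.9 kb from Gsdmc, where the folds were 4.54, 3.90 and 5.41. The regions given here with folds had a q of at most 0.05 in every list, but others of the gap did not. An example is chr15:62927404-62927852, with q of 0.197, 0.00226 and 0.330 in replicates 1, 2 and 3.

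Between Rasgrp1, a Ras activator of lymphocytes, and Thbs1, which encodes the matrix glycoprotein thrombospondin 1, 9 regions lay in 769 kb of chromosome 2, a density of 13.5 per Mb of desert space. They were gathered at the Thbs1 side, where 6 lay inside the lncRNA gene Gm13986. The highest of them (chr2:117985637-117986375), 126 kb from Thbs1, had folds of 6.96, 5.55 and 5.73. The region 52.5 kb from Thbs1 differed more between replicates, with 6.06, 4.46 and 2.87, and its q in replicate 3 was 0.404.

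Zeb2, a zinc-finger repressor of epithelial genes, and Acvr2a, an activin receptor, border a gap of 3697 kb that also held 9 regions, at 2.50 per Mb. One of them stood 2054 kb from Zeb2 and 1643 kb from Acvr2a (chr2:47170825-47171274), with folds of 4.83, 6.40 and 6.05, which made it one of the 6 desert regions farthest from any gene. Its neighbours towards Acvr2a were less even: the region 1008 kb from that gene had 5.75 in replicate 1 and 3.14 and 3.13 in replicates 2 and 3. The q of that region in replicates 2 and 3 was 0.122 and 0.123.

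The gap of Tle4, a Groucho corepressor, and Psat1, an enzyme of serine synthesis, held 8 regions on chromosome 19, 6 of them within 330 kb of Tle4. The highest (chr19:14890552-14891484), 293 kb from Tle4, had 5.77, 7.13 and 6.44. A further 8 regions lay between BC048507 and Mtrr, the methionine synthase reductase, and 8 between Rbms1, an RNA-binding protein, and Tank, a regulator of NF-κB signaling, at densities of 13.4 and 15.5 per Mb. The gaps of Usp25, a deubiquitinase, with Cxadr, a cell adhesion receptor, and of Sorcs1, a sorting receptor of neurons, with Ins1, an insulin gene, held 7 each. In the first of these, a region 527 kb from Usp25 (chr16:77643940-77644303) had folds of 5.75, 6.12 and 5.41 with summits within 7 bp, and 3 others lay in the lncRNA gene Mir99ahg.

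**Figure D3:**
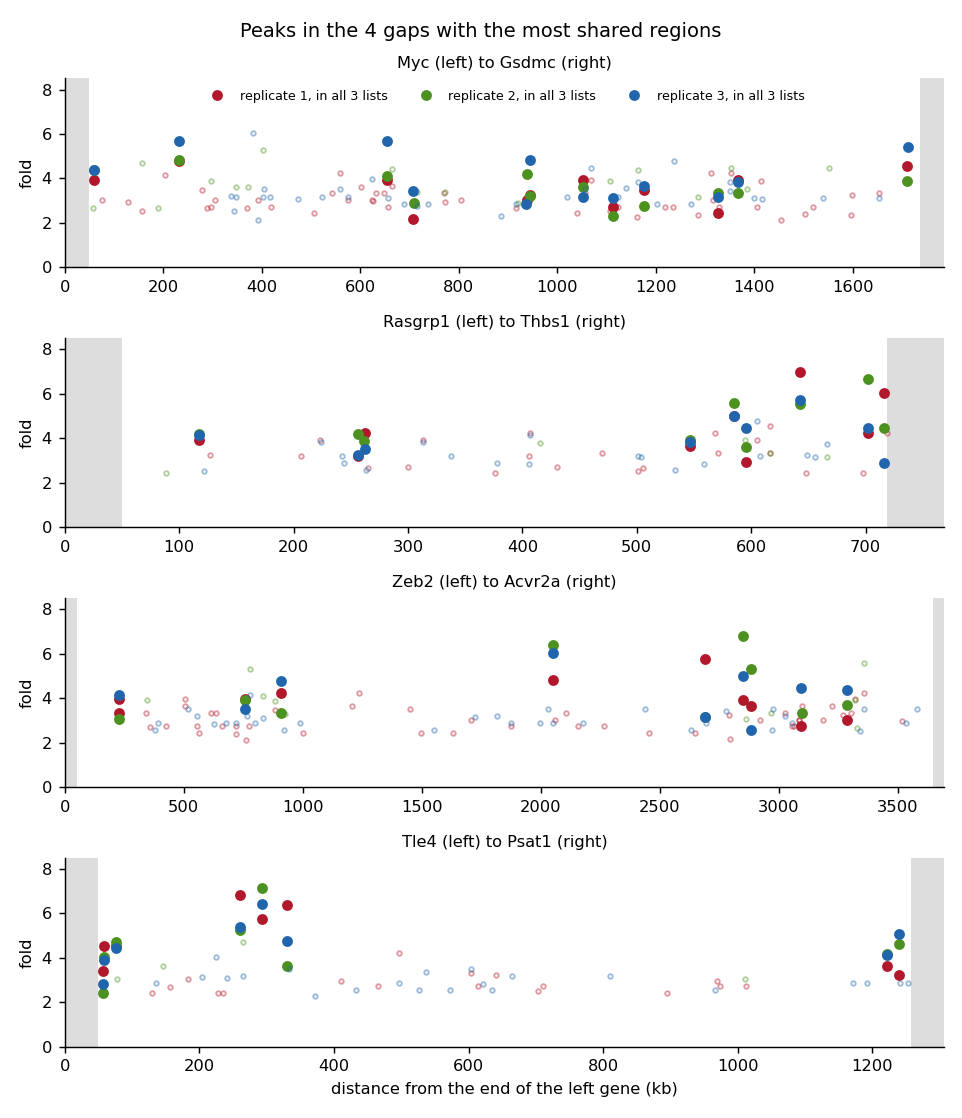
Peaks in the 4 gaps with the most desert regions, by distance from the end of the left gene (x axis, kb) and fold over the control background (y axis, linear ratio). Filled points are peaks of desert regions with a peak in all 3 lists, coloured by replicate. Open points are peaks of regions found in 1 or 2 lists. Grey bands lie within 50 kb of a gene, where peaks are not shown. The filled points of the Rasgrp1 and Thbs1 gap gather towards Thbs1 and those of the Tle4 and Psat1 gap near either gene.

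The highest folds lay elsewhere. By mean rank of fold over the replicates, the first desert region lay between Fbxw7, the substrate receptor of a ubiquitin ligase, and Gatb, a mitochondrial amidotransferase subunit (chr3:85313717-85314187), 260 kb from Gatb. Its folds of 8.05, 9.17 and 9.69 were high in every replicate, and its summits lay within 30 bp. The second, 111 kb from Tbr1, a T-box factor of cortical neurons, and 121 kb from the bicarbonate transporter gene Slc4a10 (chr2:61925083-61925529), had 8.18, 7.79 and 7.32. Between Mtpn and Chrm2, a muscarinic acetylcholine receptor, lay a pair of the 12 highest regions. One was 206 kb from Mtpn (chr6:35746034-35746497), with 7.27, 7.51 and 8.92 and summits within 12 bp, and the other 68.8 kb from it, with 6.66, 6.81 and 7.01.

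The region 60.5 kb from Npas2, a circadian transcription factor, and 136 kb from Pdcl3 (chr1:39132915-39133412) had folds of 7.22, 7.48 and 8.83. That between Prickle1, a planar cell polarity gene, and the metalloprotease gene Adamts20 had 7.41, 7.51 and 6.55. The other 6 of the 12 highest lay between Ins1 and Xpnpep1, Map3k7 (the kinase TAK1) and Bach2 (a transcriptional repressor of lymphocytes), Slc30a8 (a zinc transporter of islet cells) and Med30, Ripk2 and Mmp16, Megf9 and Gm11232, and Slc8a1 (the sodium-calcium exchanger) and Pkdcc. Their folds ran from 5.82 to 9.17. The region of Megf9 was the least even of them, with 5.82, 9.17 and 7.12.

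The 6 desert regions farthest from any gene end include the one in the Zeb2 gap given above. The farthest (chr8:6891481-6892030) lay 1725 kb from Efnb2, an ephrin ligand, and 1786 kb from the bile acid transporter gene Slc10a2, with folds of 4.74, 4.39 and 5.30. Next came a region 1711 kb from G6pd2 in the gap of the protocadherin gene Pcdh7, with 3.22, 4.59 and 3.70. Its q in replicate 1 was 0.0673. A region 1602 kb from Adgrl3, a latrophilin, in the gap shared with Igfbp7, had 2.31, 2.49 and 2.82, with q of 0.312, 0.262 and 0.0435. The background there was 6.36 fragments in replicate 1 and 5.02 in replicate 3, above the floors of 2.30 and 2.14. Between Pcdh20 and Pcdh9 lay regions at 1587 and 1544 kb, with 4.24, 3.62 and 4.14 and with 3.63, 4.46 and 4.78.

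Of 4505 protein-coding genes at the border of a gap of over 100 kb, 1177 flanked a desert region (26.1%), beside 5.46% of all 21631 protein-coding genes used. A gene with wider gaps had more room for one, so each list below is given with its gap length. Density differed with gap length too, at 1.62 to 1.86 per Mb of desert space in the classes up to 1000 kb and 0.770 beyond. The 1.24 per Mb over all gaps mixes these classes, and no list was set against gaps of its own length. The nearer gene end was a start in 463 of 873 regions with a known strand (53.0%), beside 53.8% of the ends of such gaps.

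Among the 9 lists, genes of adhesion and synapses had the highest share. Of 101 members at such borders, 60 flanked a desert region (59.4%), but their gaps were the longest, with a median of 881 kb against 228 kb over all gaps. Per Mb of desert space they held 0.731 regions against 1.24 over all gaps. Among all gaps, those of 500 to 1000 kb held 1.66 per Mb and those of over 1000 kb held 0.770. Sorcs1 and Cdh11, a cadherin of mesenchymal cells, flanked 9 each, Efnb2 had 7 and Efna5, an ephrin, 6. Cdh18, another cadherin, bordered the highest fold among the named members, at 104 kb, with 7.87, 5.80 and 7.01.

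Developmental transcription factors flanked in 58 of 139 cases (41.7%), with a median gap of 396 kb and 1.38 regions per Mb. Zeb2 had 9 and Foxa2, a forkhead factor of the endoderm, 5. Osr1, of kidney and limb mesenchyme, Gata3, a zinc-finger factor, Klf12, Nr4a2, a nuclear receptor of dopamine neurons, and Sox9, the cartilage factor, had 4 each. Osr1 had regions on either side, the best 192 kb away, with 5.45, 4.73 and 5.41. Gata3 had one at 64.9 kb with 4.84, 6.12 and 4.14.

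Genes of fibroblast matrix and secreted signals flanked in 38 of 84 cases (45.2%), and their gaps, with a median of 345 kb, held 2.38 regions per Mb. After Thbs1 came the metalloprotease gene Adamts9 with 6 and the growth factor gene Fgf9 with 5. Dkk2, a Wnt modulator, Bmp2, a bone morphogenetic protein, Inhba, an activin subunit, Angpt1, an angiopoietin, and the chemokine gene Cxcl12 had 4 each. The best region of Dkk2, 258 kb away (chr3:132437867-132438208), had 4.54, 6.76 and 7.32. That of Bmp2, 396 kb away, had 7.87 in replicate 1 and 4.73 and 5.41 in replicates 2 and 3. That of Inhba reached 7.64 in replicate 3, against 5.15 and 4.18 in replicates 1 and 2.

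Channels and neurotransmitter receptors flanked in 32 of 74 cases (43.2%), with a median gap of 377 kb and 1.34 regions per Mb. Adra2a, an adrenergic receptor, had 6, one of them at 957 kb with 5.15, 6.12 and 8.28. Chrm2, Nalcn, a sodium leak channel, and Grm3, a glutamate receptor, had 5 each. The 5 regions of Nalcn lay in a gap of 292 kb shared with Tmtc4, at 26.0 per Mb, 4 of them within the lncRNA gene Gm33906. The best of them had 4.54, 8.63 and 4.14, so it was high in replicate 2 alone.

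Of 57 genes of chromosome segregation and mitosis, 15 bordered such gaps (26.3%), beside 20.8% of all protein-coding genes. Of these, 7 flanked a desert region (46.7%), with a median gap of 258 kb and 2.56 regions per Mb over 5.47 Mb. Kif20b, a kinesin of cytokinesis, had 4, Nuf2, a kinetochore subunit, 3, Kif18a and Cenpw 2 each, and Cenpe, Smc2 and Mad2l1 1 each. Among the best regions of these genes by fold, that of Cenpe, a kinetochore motor, lay nearest, at 56.9 kb (chr3:135155410-135155826), with 5.15, 5.01 and 5.41. That of Nuf2, at 711 kb, had 5.15, 5.57 and 5.73. That of Mad2l1, a spindle checkpoint protein, was low at 2.16, 2.51 and 3.70.

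The other lists lay below the share of all border genes, but not all of them below its 1.24 regions per Mb. Zinc-finger genes named Zfp flanked in 15 of 61 cases (24.6%), led by Zfp462 and Zfp703 with 5 each, and their gaps, with a median of 213 kb, held 1.43 per Mb. Olfactory receptor genes flanked in 5 of 30 (16.7%), with 1 region each, in gaps with a median of 150 kb that held 2.30 per Mb. Vomeronasal receptor genes flanked in 0 of 74, over 6.80 Mb of desert space in gaps with a median of 139 kb, though 1 did without replicate 1 and 2 did without replicate 2. Cytosolic ribosomal protein genes flanked in 2 of 10, Rps29 with 2 regions and Rps12 with 1, with a median gap of 434 kb and 0.543 per Mb.

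**Figure D4:**
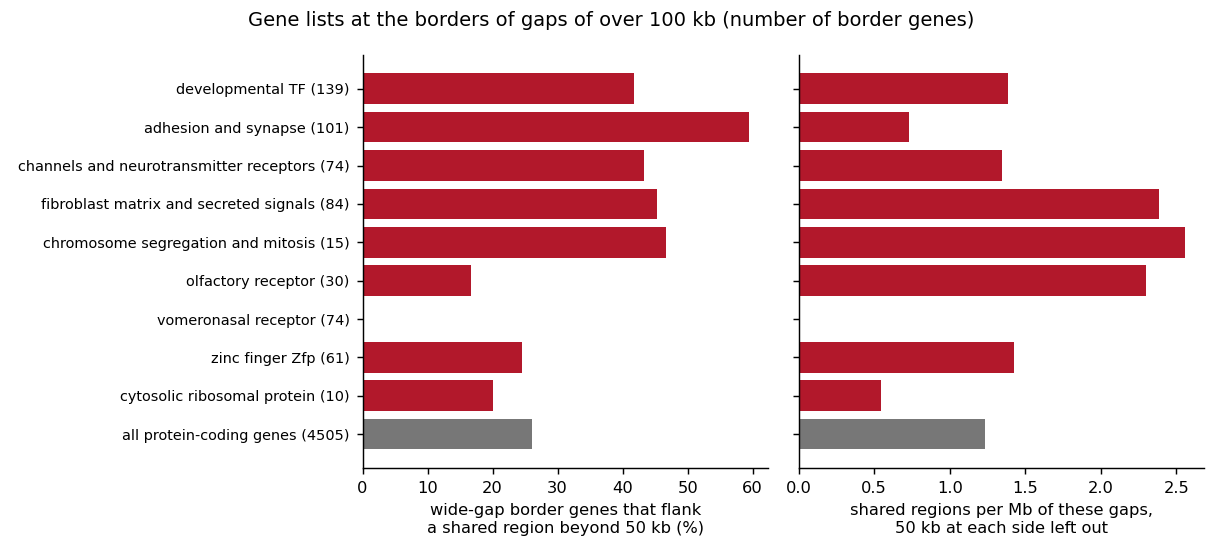
Left, share of the genes at the border of a gap of over 100 kb that flank a desert region (x axis, percent), by gene list with the number of such border genes in parentheses. Right, desert regions per Mb of the gaps of these genes, 50 kb at each side left out (x axis). Red bars are gene lists and the grey bar is all protein-coding genes, at 26.1% and 1.24 per Mb; adhesion and synapse genes reach 59.4% on the left but 0.731 on the right.

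Many desert regions lay within non-coding genes. Of the 1170, 208 (17.8%) had their midpoint in one, 200 of them in an lncRNA gene, beside 14.7% of all desert regions with a peak in any list. Such genes cover 12.8% of the desert space. Besides Gm13986, 4 regions each lay in 1700012I11Rik between St3gal1 and Zfat, Gm45968 between Zpld1 and Nfkbiz, and Gm46662 between the homeobox gene Emx2 and Rab11fip2. A pair lay in 2610307P16Rik, which neighbours Sox4, a developmental transcription factor, with maximum folds of 8.59, 6.28 and 7.01.

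Density differed widely between chromosomes. Chromosome 19 held 4.87 desert regions per Mb of desert space (67 regions between genes), chromosome 2 had 2.30 (119), and chromosomes 15, 13 and 8 had 2.16, 2.07 and 2.01. The lowest values were 0.347 on chromosome 7 (13) and 0.231 on X (18). On chromosome 19 the background was above the floor in 76.8% and 81.2% of desert regions in replicates 1 and 3, against at most 50.0% and 51.0% on any other chromosome, and its part in the density was not tested. The gaps of Tle4, Sorcs1, Adra2a, Kif20b and Emx2 and the region between Ins1 and Xpnpep1, among the 12 highest, lie on this chromosome, as does 1 olfactory receptor region, that of Olfr1505.

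**Figure D5:**
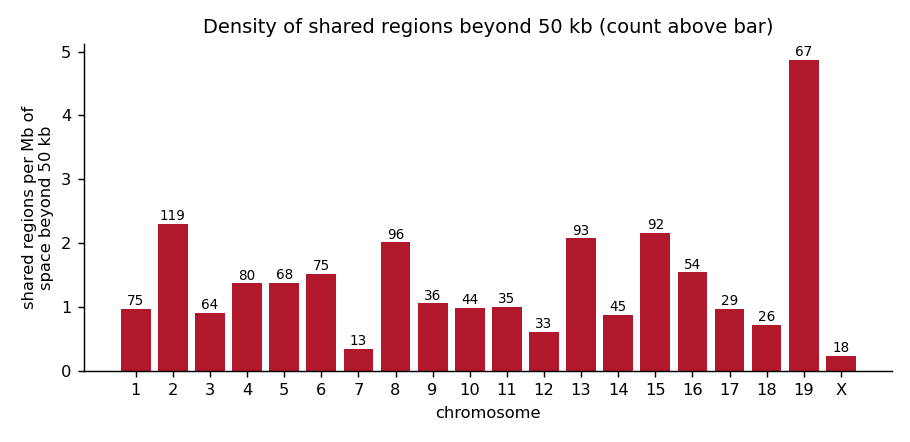
Desert regions between genes per Mb of desert space (y axis) on each chromosome (x axis), with the count above each bar. Chromosome 19 stands highest at 4.87 per Mb, and X lowest at 0.231.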

How the data were processed

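The build GRCm38 is named in the submitters' processing notes, which list MACS2 2.1.0, Bowtie2 2.2.6 and also deepTools 3.3.2 without their roles. The peak names point to calls per replicate against the input. The lists deposited by the authors give each peak a fold (a ratio with 1 added to both sides), the −log10 of its p-value and of its q-value, and a score, at a lowest −log10 p of 2.00 in replicate 1. Depth is not given, so no precision per value could be set.

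Peaks were merged at 1 bp or more and placed against the 21631 protein-coding genes of a RefSeq table (GRCm38.p6). Pileup and background were solved from the authors' fold and p-value within 0.001 in −log10 p, which succeeded for 100% of peaks in replicates 1 and 3 and 0.172% in replicate 2. Libraries of IgG and of control cells were left out, since only the 3 lists were used.

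Named are the genes flanking the 12 highest desert regions by mean rank of fold, the 8 gaps with most regions and the 6 farthest regions, and up to 8 members of each list. A gene and a feature of the cells are not reported here. The 9 gene lists and the rule were chosen with earlier results of these data known. Regions, hosts and microRNAs outside that rule were chosen after their values were seen. No genome was used here, so the planned motif search around summits was replaced by one in promoter windows, and sequences are from RefSeq. Exact sign-flip permutation tests paired desert and other values within a list. Peak merging, placing and solving were tested on simulated data. Alternatives changed the distance, peak threshold, overlap, gene set and replicates. Calculations were run in Python 3.11.15 with pandas 2.3.3, numpy 2.4.6 and scipy 1.17.1, and plots drawn in matplotlib 3.10.9.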

Additional observations from a re-analysis of the deposited data

How the results depend on the processing

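The number of desert regions was 584 with peaks of q of at most 0.05, 80 when a fold of at least 5 was asked, 83 with a −log10 q not under 5, and 411 with all annotated genes in place of protein-coding ones. Leaving out 1 replicate, so that a peak was asked in both remaining lists only, gave 1575 to 2313. Their share of all shared regions was 29.2% beyond 25 kb, 16.0% beyond 100 kb, 20.1% at that q, 17.7% at that fold, 17.4% with a −log10 q not under 5, 8.06% with all genes and 23.6% to 24.6% without 1 replicate. Border genes that flank a desert region made up 20.4% beyond 25 kb, 31.2% beyond 100 kb, 16.7% at that q, 3.29% at that fold, 3.40% with a −log10 q not under 5, 23.1% with summits within 100 bp, 11.9% with all genes and 30.4% to 36.6% without 1 replicate. The difference in median fold turned to 0.0336 at a q of at most 0.05 and was negative under the other alternatives, from -0.54 to -0.08, and without 1 replicate from -0.18 to -0.12. The difference in recurrence was negative under every alternative run, from -6.99 to -4.65 percentage points. The gap limit for border genes followed the distance, and the gaps followed the gene set. The shares of border genes beyond 25 kb, beyond 100 kb and with all genes thus have denominators other than the 4505 genes used above. The cause of these shifts was not tested, beyond such denominators and the fewer or more peaks and genes that each alternative admits. Of the vomeronasal receptor genes, 1 flanked a region beyond 25 kb, and 1 or 2 did so without replicate 1 or 2. Beyond 100 kb, olfactory receptor and Zfp genes flanked in 1 and 9 cases.

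No paired analysis between groups was possible because the peak lists analysed belong to 1 group, so no replicates of 2 groups were there to pair. The exact tests pair desert and other regions within a list, and for recurrence the lists count the same shared regions. The lists hold no reads, so shallow replicates cannot be told from weak binding. With 3 lists the smallest exact p was 0.25, or 0.5 for the main difference in median fold, where replicate 2 was tied. Regions are not replicates. A gene that flanks a region was not shown to be regulated by it. The core sites rest on 5 promoter windows, and 9 desert regions reached any window.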
